A study of Mus musculus with 43 samples.

Results

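The 8 genes described here encode ATP-driven pumps that move drugs and conjugated metabolites out of cells: Abcb1a, Abcb1b, Abcg2, Abcc1, Abcc3, Abcc4, Abcc5 and Abcc6. They were chosen by gene symbol from a table of 54532 mouse genes, all 8 were in the table, and all 8 passed the filter on low counts that left 29120 genes for testing. Their RNA was measured by bulk RNA sequencing in 43 libraries of sorted brain EC of mice aged 2 months. EC were dissociated from the cortex or the hippocampus and sorted by flow cytometry as CD45-, CD11b- and CD31+ cells, so that leukocytes and microglia were gated out and cells carrying the endothelial surface protein CD31 were kept. The libraries came from 7 strains with no transgene or treatment named in the labels. Of the long-inbred strains, 129S1/SvImJ had 9 libraries, C57BL/6J and NOD/ShiLtJ had 6 each, and A/J and DBA/2J had 5 each. The wild-derived strains CAST/EiJ and WSB/EiJ had 6 libraries each. The 16 female and 27 male libraries were split into 21 from the cortex and 22 from the hippocampus. Titles also carried the tag high or low, which the labels do not define: 14 male libraries were titled high and 13 low, and 15 female libraries were titled high and 1 low. Which libraries came from the same mouse is not given, so p-values measure the spread between libraries.

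EC of the brain form the blood-brain barrier, and ABC transporters in their membranes return many lipophilic compounds to the blood before they reach the tissue. P-glycoprotein, which mice encode in the gene pair Abcb1a and Abcb1b, and the breast cancer resistance protein Abcg2 are the best known of these pumps and share many substrates. The Abcc genes encode the multidrug resistance-associated proteins, which carry organic anions such as glutathione, glucuronide and nucleotide conjugates.

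Library totals ran from 1626534 to 49372356 counts. Female libraries were deeper, with a median of 21242058 counts against 5257353 in male libraries. By strain, the median total ran from 2721155 counts in WSB/EiJ to 30897300 counts in 129S1/SvImJ. In 129S1/SvImJ 6 of 9 libraries were female, against 1 or 2 in each other strain. Reads of 3 rRNA-like genes (Gm23935, Gm42418 and Gm26917) took 1.59% to 12.1% of counts in female and 13.0% to 29.3% in male libraries. Levels are given as CPM, read counts scaled to a common library size with TMM-adjusted totals. The labelled cell type was checked with 20 endothelial markers, of which all 20 had counts and whose summed level was 11586 to 23776 CPM. Markers of other cells had lower median sums, at 4430 CPM for 10 pericyte genes and 3373 CPM for 10 astrocyte genes. In the male A/J cortex library titled low, however, the astrocyte sum was 19670.5 CPM. That exceeded the highest endothelial sum of any male library titled low, 19162.5 CPM. The median was 405 CPM for 10 smooth muscle genes, 238.5 CPM for 8 neuronal genes and 25.0 CPM for 10 microglial genes. The median sums were 62.4 CPM for 10 fibroblast, 103 CPM for 8 oligodendrocyte and 7.73 CPM for 8 choroid plexus genes. The defining microglial genes Tmem119, Aif1, Itgam, Trem2 and Siglech were at 0 in over 21 of the 43 libraries.

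Abcb1a and Abcb1b lie next to each other on chromosome 5 of mm10, at chr5:8660077-8748575 and chr5:8798147-8866315, both on the plus strand and 49571 bases apart. Abcg2 is at chr6:58584523-58695676, Abcc6 at chr7:45967555-46030302, Abcc3 at chr11:94343295-94392997, Abcc4 at chr14:118482692-118706219, Abcc1 at chr16:14361558-14475737 and Abcc5 at chr16:20331303-20426394. All 8 are protein-coding in GENCODE M21. The pair on chromosome 5 is so alike that short reads can fit both. Over 3819 aligned bases their coding sequences were 88.2% identical, 367 stretches of 100 bases occurred in both, and 26.0% of 3744 aligned windows of 100 bases differed at 2 positions or fewer. The reads of the study were longer than 100 bases, so these values overstate how many whole reads fit both genes. The longest identical run was 338 bases. No 100-base stretch was shared between any of the 5 Abcc genes, whose coding sequences were 60.2% to 65.2% identical. The first sequence below is a shared stretch and shows how alike the genes are. It is from exons 11 and 12 of Abcb1a (coding bases 1204 to 1303, chr5:8701969-8702243, plus strand, GRCm38, from GENCODE M21 transcripts) and is the same in Abcb1b. Its capitals mark the 24 bases that encode the ATP-binding Walker A motif. The other 2 sequences are the pair's most different aligned window without a gap, from exons 15 and 16 (chr5:8713346-8714983 in Abcb1a and chr5:8825710-8827422 in Abcb1b, plus strand), where reads can be told apart. There, capitals mark the 32 of 100 bases that differ.
Abcb1a and Abcb1b, shared: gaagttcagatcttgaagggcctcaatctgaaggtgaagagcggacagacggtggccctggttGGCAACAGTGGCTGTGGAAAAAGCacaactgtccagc
Abcb1a, most different: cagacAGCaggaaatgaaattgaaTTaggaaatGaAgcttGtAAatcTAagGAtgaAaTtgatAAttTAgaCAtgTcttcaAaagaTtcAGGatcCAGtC
Abcb1b, most different: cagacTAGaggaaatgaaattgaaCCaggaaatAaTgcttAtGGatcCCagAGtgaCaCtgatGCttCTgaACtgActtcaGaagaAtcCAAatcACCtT

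Scaled to exon length, Abcb1a was the most abundant of the 50 ABC genes in the table, at 263 ± 45.5 CPM per kilobase of exon (SD, n = 43). Abcc4 was second at 65.6 ± 17.3 and Abcg2 was at rank 4 with 30.9 ± 7.96 CPM per kilobase, with Abcf1, whose product acts in translation, between them. Abcb1a exceeded Abcc4 in 43 of 43 libraries and Abcc4 exceeded Abcg2 in 42 of 43. The remaining members were far lower. Abcc6 stood at 7.73 ± 5.06 and Abcc5 at 4.88 ± 2.28 CPM per kilobase, and their order held in 30 of 43 libraries only. Abcc1 stood at 1.13 ± 0.789 and Abcb1b at 0.889 ± 1.11 CPM per kilobase, with Abcc1 the higher in 25 of 43 libraries. Abcc3 was last of the members at 0.207 ± 0.613 CPM per kilobase.

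**Figure D1:**
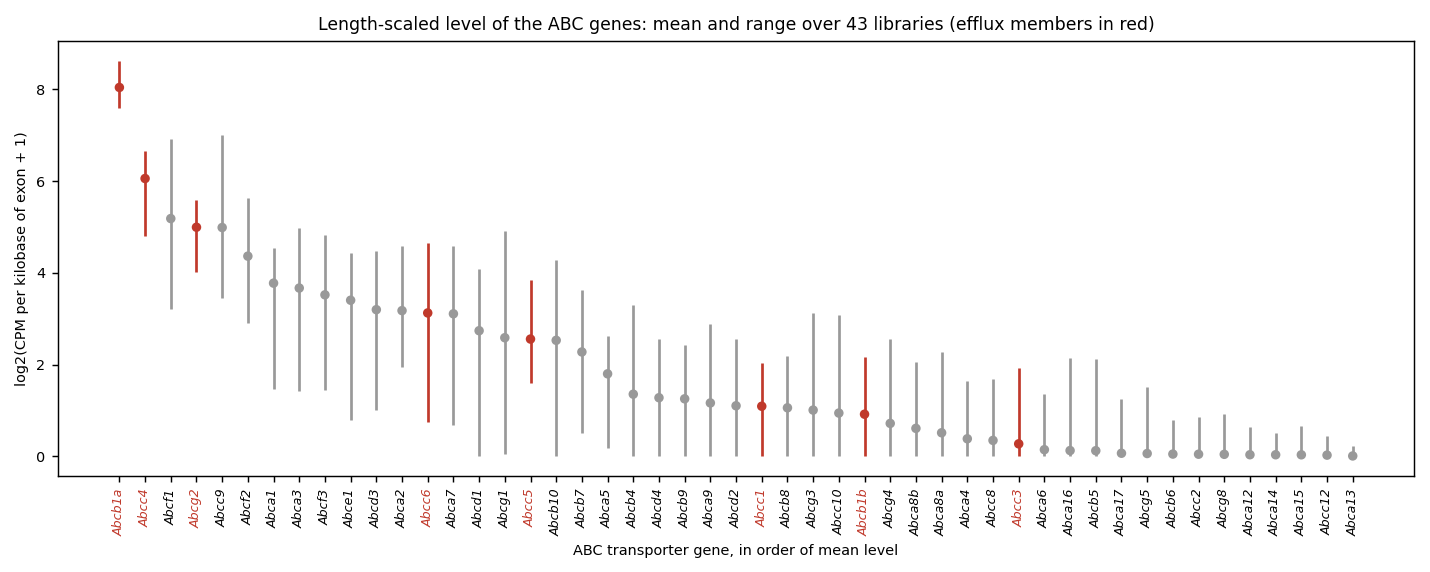
Each vertical line gives the lowest to the highest level of 1 ABC gene over 43 libraries, and each point its mean, as log2(CPM per kilobase of exon + 1) on the y axis, with the 49 tested genes in order of mean level on the x axis. Abcb1a, Abcc4 and Abcg2, drawn in red like the other members, are at ranks 1, 2 and 4, and Abcc3 is at rank 36.

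The strains were compared to ask how far the pump transcripts of the barrier differ with genetic background. Abcb1b, the second P-glycoprotein gene, was the member that edgeR called among the 7 strains: it was high in CAST/EiJ and NOD/ShiLtJ and low in nearly all libraries of the other strains, 9 of which held 3 counts or fewer. In CAST/EiJ its level was 15.3, 15.7, 20.4, 22.5, 23.3 and 25.3 CPM in the 6 libraries. In NOD/ShiLtJ it was 8.64, 14.2, 16.7, 17.5, 21.2 and 27.7 CPM. All 12 libraries of these strains held more Abcb1b than 30 of the 31 libraries of the other strains.
The 5 A/J libraries held 0, 0.176, 0.624, 2.65 and 24.2 CPM, and the 5 DBA/2J libraries 0.143, 0.339, 0.509, 1.73 and 4.39 CPM. The lowest, median and highest levels were 0.208, 1.41 and 5.37 CPM in 129S1/SvImJ, 0.257, 0.894 and 7.06 CPM in C57BL/6J, and 0.432, 1.07 and 5.24 CPM in WSB/EiJ. The exception was 1 A/J library (hippocampus, male, titled low) with 147 counts of Abcb1b, whose level of 24.2 CPM lay inside the range of CAST/EiJ and NOD/ShiLtJ.

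By edgeR's quasi-likelihood test with Benjamini-Hochberg adjustment over all tested genes, Abcb1b differed among the strains (adjusted p = 0.00561). It was 1 of 8 members called, beside 2.68% of all genes tested. An alternative test, DESeq2, called 2 of 8 members, adding Abcb1a (adjusted p = 0.00707). Against the mean of the other strains, Abcb1b was 6.30-fold higher in CAST/EiJ (log2 fold change 2.66 ± 0.65 SE, adjusted p = 0.0102, edgeR, with 6 of 6 libraries above the mean of the other strains), where 1.35% of genes were called. The NOD/ShiLtJ value was 5.32-fold (2.41 ± 0.66 SE) and missed the threshold (adjusted p = 0.116, edgeR), with 0.185% of genes called. Without the high A/J library the NOD/ShiLtJ difference passed the threshold (2.85, adjusted p = 0.0170, edgeR), and the CAST/EiJ value was 3.09. In male libraries alone, which were shallower, the call among strains was lost (adjusted p = 0.462, edgeR) and so was the CAST/EiJ call (2.33, adjusted p = 0.262, edgeR).

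The split was seen in libraries of each sex. The 2 female CAST/EiJ libraries held 20.4 and 23.3 CPM and the 2 female NOD/ShiLtJ libraries 17.5 and 21.2 CPM, against 0.143 to 7.06 CPM in 12 female libraries of the other strains. The 4 male libraries of CAST/EiJ held 15.3 to 25.3 CPM and those of NOD/ShiLtJ 8.64 to 27.7 CPM, against 0 to 5.37 CPM in all but 1 of 19 male libraries of the other strains. The rRNA-like share moved with this split in female libraries: it was 9.66% to 10.5% in CAST/EiJ and NOD/ShiLtJ, 1.59% to 4.05% in 129S1/SvImJ, C57BL/6J, DBA/2J and WSB/EiJ, and 12.1% in the single A/J library, whose Abcb1b level was 0.624 CPM. In male libraries the shares of the other strains, at 13.0% to 29.3%, spanned the 18.6% to 23.9% of CAST/EiJ and NOD/ShiLtJ. The summed pericyte markers were at 2029 to 3043 CPM in CAST/EiJ and 5476 to 8701 CPM in NOD/ShiLtJ. The part of the rRNA-like share and of pericyte content in the Abcb1b values was not tested.

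Counts of Abcb1b were a small part of all Abcb1 counts. Abcb1b made up 1.54% ± 0.327 (SD, n = 6) of the counts of the pair in CAST/EiJ and 1.47% ± 0.597 (n = 6) in NOD/ShiLtJ. The medians were 0.0349% in DBA/2J, 0.0390% in A/J, 0.0559% in C57BL/6J, 0.0661% in WSB/EiJ and 0.0982% in 129S1/SvImJ. The share went as low as 0 in 1 A/J library, and 1 129S1/SvImJ library held 12 counts of Abcb1b beside 93309 of Abcb1a. Reads from a strain's own alleles of the pair were not analysed here, so how the strains' sequence differences moved reads between the genes was not tested.

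Abcb4, the next gene along the chromosome, encodes a phospholipid translocase of bile and starts 27401 bases beyond the end of Abcb1b, at chr5:8893717-8959231. It is no member, but its level followed strain too. It lay at 43.9 to 82.8 CPM in the 6 CAST/EiJ libraries and at 0 to 20.1 CPM in the 37 others, with no overlap. It differed among the strains (adjusted p = 0.00815) and was higher in CAST/EiJ (log2 fold change 3.29 ± 0.61 SE, adjusted p = 0.000186, edgeR). In the 6 NOD/ShiLtJ libraries, where Abcb1b was high, Abcb4 lay at 0.936, 1.99, 3.20, 4.09, 11.4 and 13.5 CPM, inside the range of the strains in which Abcb1b was low. No 100-base stretch of coding sequence was shared between Abcb1b and Abcb4, and 11 were shared between Abcb1a and Abcb4. Of 19 other tested genes within 500000 bases of the Abcb1 pair, 2 were called among strains, Abcb4 and Tmem243.

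**Figure D2:**
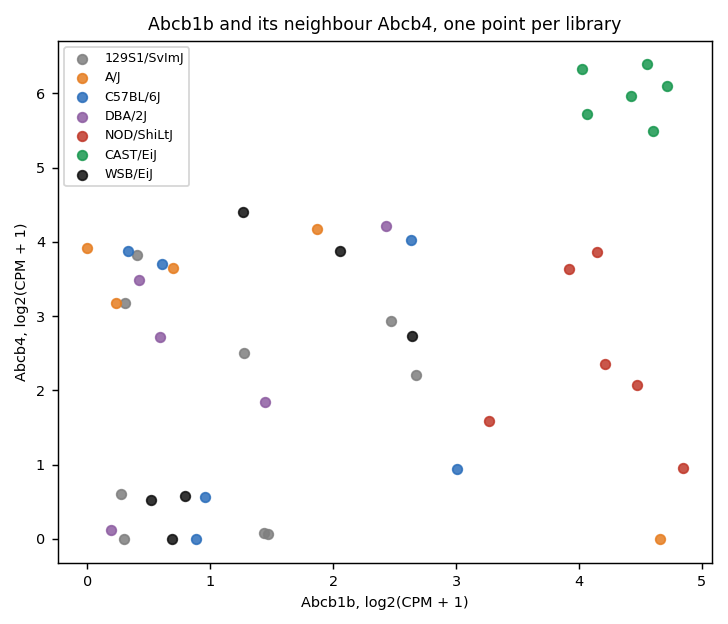
Each point is 1 of the 43 libraries, coloured by strain, with the level of Abcb1b on the x axis and of Abcb4 on the y axis, both as log2(CPM + 1). The 6 CAST/EiJ libraries are high for both genes, the 6 NOD/ShiLtJ libraries are high for Abcb1b only, and 1 A/J library lies with NOD/ShiLtJ.

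Abcb1a, which encodes the P-glycoprotein that predominates at the mouse blood-brain barrier, was the steadiest member, with a coefficient of variation of 17.3% over the 43 libraries and a range of 1062 to 2165 CPM. Its strain means ran from 1207 ± 109 CPM (SD, n = 6) in NOD/ShiLtJ to 1628 ± 263 CPM (n = 6) in C57BL/6J, and the ranges of all 7 strains overlapped their neighbours in the order. The test among strains did not call it (adjusted p = 0.538, edgeR). The NOD/ShiLtJ difference from the other strains, -0.28 ± 0.12 SE on the log2 scale, had an unadjusted p = 0.0206 and an adjusted p = 0.444 in edgeR.

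Abcg2, whose product shares many substrates with P-glycoprotein, ran from 213 ± 54.9 CPM (SD, n = 5) in DBA/2J to 284 ± 44.2 CPM (n = 6) in C57BL/6J. Single libraries spanned 124 to 383 CPM, and Abcg2 was not called among strains (adjusted p = 0.820, edgeR). Abcc4, an exporter of cyclic nucleotides and nucleoside analogues, was highest on average in CAST/EiJ, at 513 ± 108 CPM (n = 6), and lowest in A/J, at 323 ± 110 CPM (n = 5). It was not called among strains either (adjusted p = 0.472, edgeR). The CAST/EiJ difference of 0.39 ± 0.16 SE on the log2 scale had an unadjusted p = 0.0194 and an adjusted p = 0.357 in edgeR.

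The low members varied more. Abcc6, a gene best known for its role in preventing ectopic calcification, averaged 72.4 ± 34.7 CPM (SD, n = 6) in C57BL/6J and 28.3 ± 13.8 CPM (n = 6) in CAST/EiJ, and lay between 13.9 and 38.1 CPM in NOD/ShiLtJ. Its libraries spanned 3.89 to 138 CPM, and it missed the threshold among strains (unadjusted p = 0.0153, adjusted p = 0.253, edgeR). Abcc5, which exports nucleotide analogues, ran from 34.5 ± 6.81 CPM (n = 6) in CAST/EiJ to 72.2 ± 31.6 CPM (n = 9) in 129S1/SvImJ (adjusted p = 0.602 among strains, edgeR). Abcc1, an exporter of glutathione conjugates, ran from 7.01 ± 8.27 CPM (n = 6) in C57BL/6J to 26.4 ± 12.3 CPM (n = 5) in DBA/2J (adjusted p = 0.807 among strains, edgeR). Single libraries within a strain were as far apart as these means: in WSB/EiJ Abcc1 ranged from 1.57 to 46.3 CPM.

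Abcc3, an exporter of glucuronide conjugates, was not detectable in most libraries. It had 0 counts in 30 of the 43, including all 6 NOD/ShiLtJ and all 6 WSB/EiJ libraries. Over a strain's libraries together, 3 counts would correspond to 0.0525 CPM in NOD/ShiLtJ and 0.172 CPM in WSB/EiJ. The highest values were 15.8 CPM (57 counts) in 1 CAST/EiJ library and 14.4 CPM (68 counts) in 1 C57BL/6J library, both male cortex titled low, and 9.44 CPM (65 counts) in 1 male 129S1/SvImJ cortex library titled high. All other libraries held at most 3.31 CPM. No fold change is given for this gene.

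**Figure D3:**
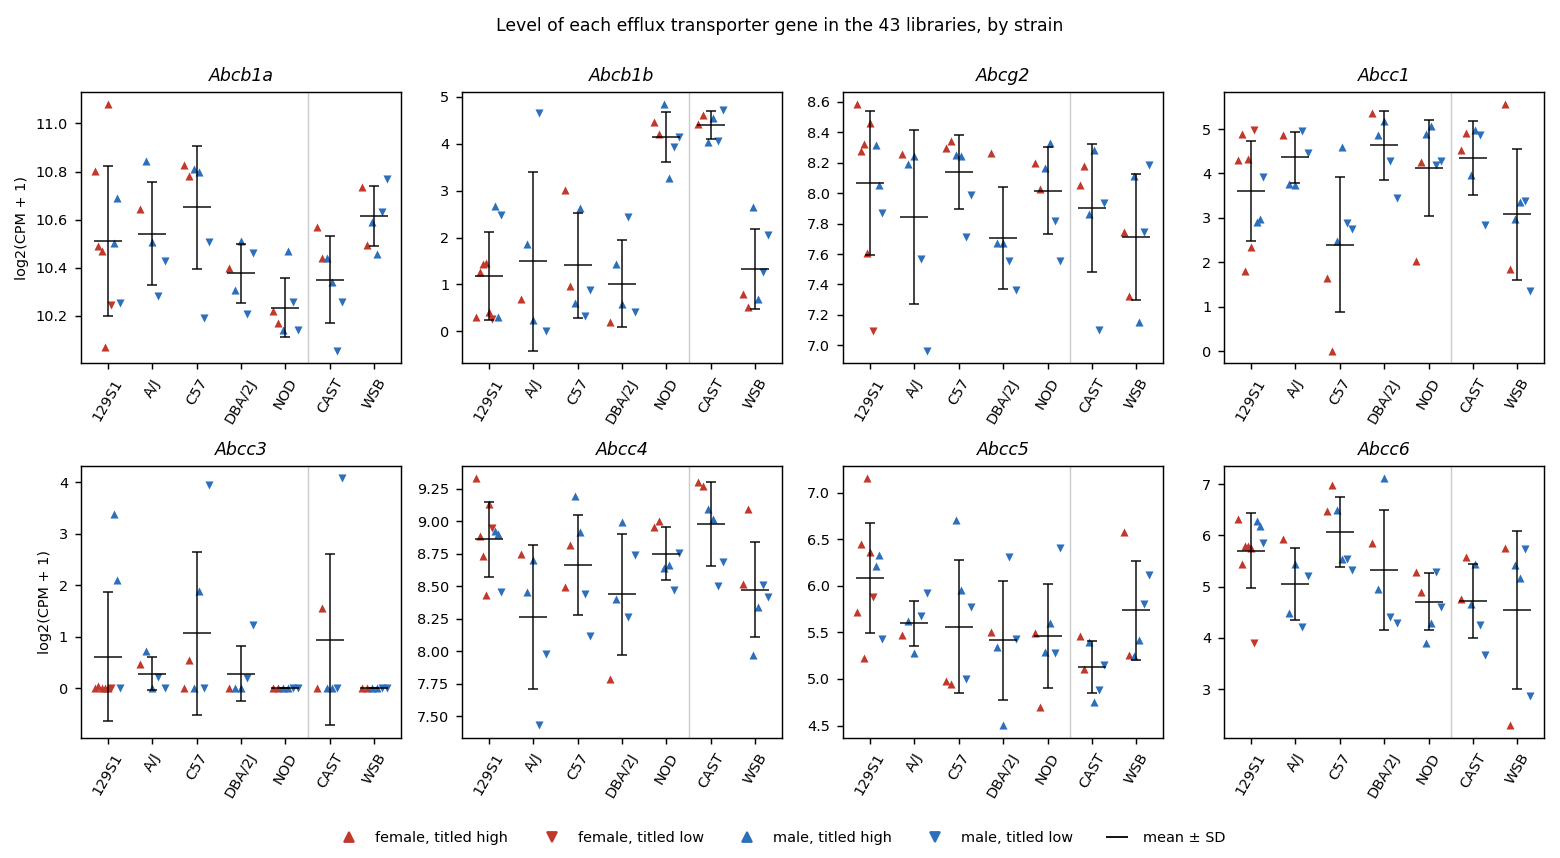
Each panel shows 1 member gene, with log2(CPM + 1) on the y axis and the 7 strains on the x axis. Points are single libraries (red female, blue male, upward triangles titled high, downward triangles titled low), and bars give the mean ± SD. Abcb1b separates CAST/EiJ and NOD/ShiLtJ from the other strains but for 1 A/J library, whereas the strains overlap for the other members.

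Within the order of strain means, neighbouring strains were compared for the 7 members other than Abcc3 by a two-sided exact permutation test of mean log2(CPM + 1). Of 42 neighbouring pairs, 0 passed after Benjamini-Hochberg adjustment and 1 had an unadjusted p under 0.05. That pair was NOD/ShiLtJ over A/J for Abcb1b (difference 2.65 on the log2 scale, exact permutation p = 0.0195, adjusted p = 0.818). The smallest p that group sizes allowed was 0.00216 for that pair and 0.0001998 to 0.00794 over all pairs, so that 29 of the 42 pairs could not have passed the adjustment on their own. Neighbours are also by construction the strains with the closest means, so the test says little about whether they differ. For Abcb1b the order was CAST/EiJ, NOD/ShiLtJ, A/J, C57BL/6J, WSB/EiJ, 129S1/SvImJ and DBA/2J, and for Abcb1a it was C57BL/6J, WSB/EiJ, A/J, 129S1/SvImJ, DBA/2J, CAST/EiJ and NOD/ShiLtJ.

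In the other strains taken one at a time against the rest, 0 of 8 members were called. The share of genes called was 1.46% in 129S1/SvImJ, 0.254% in A/J, 0.529% in C57BL/6J, 0.192% in DBA/2J and 2.41% in WSB/EiJ. At an unadjusted p under 0.05 there were 2 members in 129S1/SvImJ (beside 19.7% of all genes), 1 in A/J (10.1%), 3 in C57BL/6J (13.2%) and 2 in NOD/ShiLtJ (9.52%). There were 4 in CAST/EiJ (10.5%) and 0 in DBA/2J (7.66%) and WSB/EiJ (13.2%). The counts for C57BL/6J and CAST/EiJ include Abcc3, which was not detectable in most libraries. Its highest level in each of these strains was in 1 library (14.4 and 15.8 CPM). Of the members counted other than Abcb1b, the smallest unadjusted p was that of Abcc6 in C57BL/6J. There, Abcc6 was 0.97 ± 0.33 SE higher on the log2 scale (adjusted p = 0.170, edgeR). Between the wild-derived strains, 0 of 8 members were called where 1.22% of genes were, and the Abcb1b difference of CAST/EiJ over WSB/EiJ was 3.41 ± 1.13 SE (adjusted p = 0.146, edgeR).

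Wild-derived and long-inbred strains were compared because the paper describes the recently wild-derived strains as carrying the most single nucleotide polymorphisms. None of the 8 members was called (edgeR and DESeq2), beside 0.749% of all genes in edgeR. In edgeR 1 member had an unadjusted p under 0.05, beside 7.01% of all genes. That member was Abcc6, at 3.89, 30.5 and 53.1 CPM (lowest, median, highest) in 12 wild-derived libraries and 13.9, 42.8 and 138 CPM in 31 long-inbred libraries. The ranges overlapped, and the log2 difference was -0.72 ± 0.30 SE (unadjusted p = 0.0216, adjusted p = 0.537, edgeR). Abcb1a differed by 0.00 on the log2 scale, with a 95% interval of -0.19 to 0.20. For Abcb1b the origins did not describe the split: of the strains in which it was high, 1 is wild-derived and 1 is long-inbred. Its difference by origin was 1.03 ± 0.65 SE (adjusted p = 0.754, edgeR), and without CAST/EiJ it turned to -1.52.

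Cortex and hippocampus were compared to see whether the vessels of the regions carry different amounts of pump RNA. None of the 8 members was called by edgeR or by DESeq2, and 0.0755% of all genes were called in edgeR. In edgeR 0 members had an unadjusted p under 0.05, beside 5.6% of all genes. Abcb1a was at 1429 ± 200 CPM (SD, n = 21) in the cortex and 1449 ± 294 CPM (n = 22) in the hippocampus, a log2 difference of 0.02 with a 95% interval of -0.16 to 0.20. Abcg2 was at 251 ± 72.0 and 252 ± 59.1 CPM, a log2 difference of 0.0041 with an interval of -0.26 to 0.27. The intervals of both pumps spanned 0. The widest gap among the abundant members was in Abcc4, at 249, 449 and 642 CPM (lowest, median, highest) in the cortex and 171, 360.2 and 617 CPM in the hippocampus (log2 difference -0.19 ± 0.13 SE, adjusted p = 0.669, edgeR). In 18 pairs of libraries matched by strain, sex and tag, Abcc4 was lower in the hippocampus in 13. The summed astrocyte markers had means of 5319 CPM in the cortex and 3017 CPM in the hippocampus, with a median log2 difference of -0.60 over 10 genes, of which the 1 called was higher in the hippocampus. Their part in these values was not tested. In edgeR's test of the interaction of strain and region, 0 of 8 members were called and 0 had an unadjusted p under 0.05, beside 0% of 28736 genes called and 614 with an unadjusted p under 0.05.

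Among male libraries, the 3 abundant pumps had lower mean levels in those titled low than in those titled high, but 0 of 8 members passed the test over all genes in edgeR, where 1.06% of genes were called. DESeq2 called 1 of 8, Abcg2 (log2 difference -0.38, adjusted p = 0.0499). In edgeR 4 of 8 members had an unadjusted p under 0.05, beside 8.11% of all genes.
Abcg2 was at 141, 289 and 321 CPM (lowest, median, highest) in 14 libraries titled high and at 124, 209 and 289 CPM in 13 titled low. The ranges overlapped, and in 13 pairs matched by strain and region Abcg2 was lower in the library titled low in 12, the exception being WSB/EiJ hippocampus. The log2 difference was -0.41 ± 0.14 SE (unadjusted p = 0.00620, adjusted p = 0.236, edgeR). Without libraries under 3000000 counts it passed the threshold (-0.51, adjusted p = 0.0386, edgeR).
Abcc4 was at 249, 446 and 584 CPM in libraries titled high and at 171, 350 and 432 CPM in those titled low, and was lower in 10 of 13 pairs (log2 difference -0.37 ± 0.13 SE, adjusted p = 0.259, edgeR). Abcb1a was at 1130, 1453 and 1837 CPM against 1062, 1225 and 1744 CPM and was lower in 10 of 13 pairs (-0.20 ± 0.10 SE, adjusted p = 0.582, edgeR). Abcc6 was at 13.9, 42.1 and 138 CPM against 6.29, 23.2 and 57.05 CPM and was lower in 9 of 13 pairs (-0.76 ± 0.31 SE, adjusted p = 0.393, edgeR). Abcc5 and Abcb1b had differences of 0.03 ± 0.23 SE and 0.31 ± 0.72 SE.

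**Figure D4:**
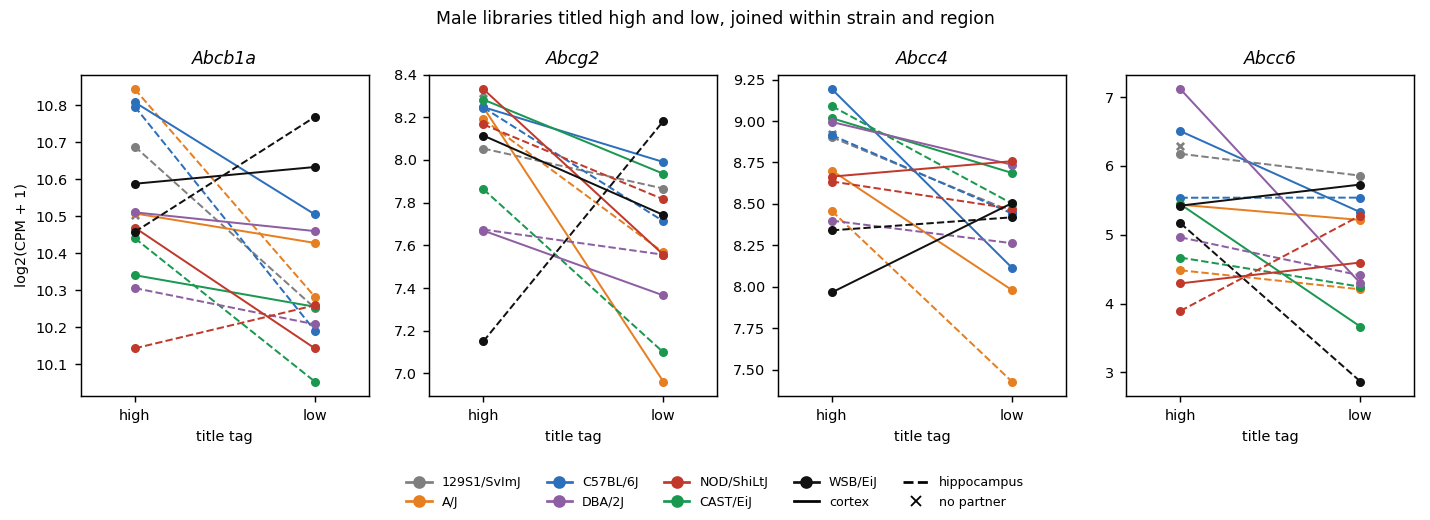
Male libraries titled high (left) and low (right) are joined where strain and region match, with log2(CPM + 1) on the y axis, colours for strains, dashed lines for the hippocampus and a cross for the library with no partner. Abcg2 is lower in the library titled low in 12 of 13 pairs, Abcb1a and Abcc4 in 10 of 13 and Abcc6 in 9 of 13.

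Cell type markers also differed by tag. The summed endothelial markers were at 15739 to 23299 CPM in male libraries titled high and 15034 to 19163 CPM in those titled low, with means of 20021 and 16802 CPM, and 6 of 20 endothelial markers were called, 5 of them lower. The astrocyte sum had means of 3628 CPM (range 1480 to 7274) and 6712 CPM (range 3163 to 19670), with 3 of 10 genes called higher. The pericyte sum had means of 4551 CPM (range 2204 to 8785) and 6521 CPM (range 2667 to 9636), with 1 of 10 called higher but a median log2 difference of -0.15 over the 10 genes. The neuronal sum had means of 207 CPM (range 111 to 554) and 400 CPM (range 225 to 656), with 2 of 8 called higher, and 1 of 8 oligodendrocyte genes was called higher. Their part in the lower pump values was not tested. In bulk RNA, fewer EC and less pump RNA per EC cannot be told apart.

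Sexes differed widely in depth and in the rRNA-like share, as given above, and cannot be told apart from them. Of the 8 members 0 were called by edgeR or DESeq2, beside 2.85% of all genes in edgeR. In edgeR 1 member had an unadjusted p under 0.05, beside 13.1% of all genes. Abcc4 was at 220, 482 and 642 CPM (lowest, median, highest) in 16 female libraries and at 171, 362 and 584 CPM in 27 male libraries, with overlapping ranges (log2 difference 0.28 ± 0.12 SE, unadjusted p = 0.0242, adjusted p = 0.278, edgeR). In libraries titled high alone the difference was 0.09 (adjusted p = 0.806, edgeR). The astrocyte sum had means of 2503 CPM in female and 5113 CPM in male libraries, with 2 of 10 genes called lower in females, and the pericyte sum 4095 and 5500 CPM, with 0 of 10 called. The endothelial sum had means of 18817 and 18471 CPM, with 3 of 20 genes called higher in females. Their part in the Abcc4 values was not tested. Abcb1a differed by 0.10 ± 0.09 SE and Abcg2 by 0.22 ± 0.13 SE.

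**Figure D5:**
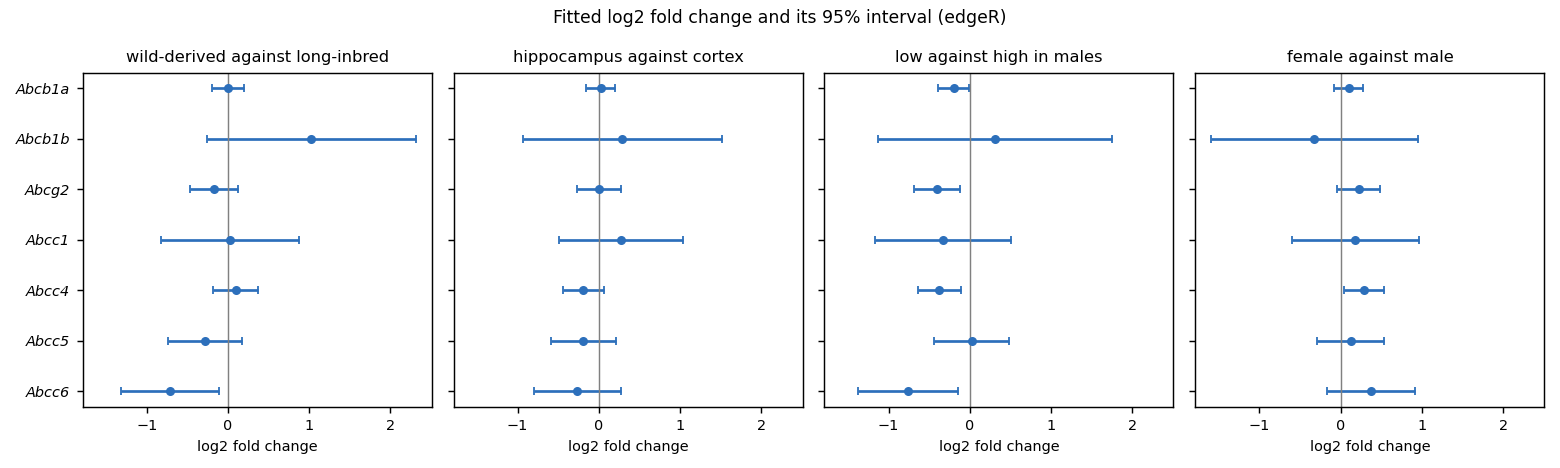
Points give the fitted log2 fold change of 7 members and bars its 95% interval, in 4 panels for wild-derived against long-inbred, hippocampus against cortex, low against high in males, and female against male. Abcb1a and Abcg2 have narrow intervals and Abcb1b and Abcc1 wide ones, and 0 of these differences passed the adjusted threshold.

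Genes that work with the pumps were counted by list. Among 12 other ABC transporters linked to xenobiotics or lipids, 3 were called among strains, where 2.68% of all genes were, namely Abcc9, Abcg1 and Abcb4. Abcc9, the regulatory subunit of a potassium channel and a pericyte marker, was higher in WSB/EiJ (log2 fold change 1.31 ± 0.19 SE), and Abcg1, a cholesterol exporter, was higher in WSB/EiJ (1.51 ± 0.39 SE) and lower in 129S1/SvImJ (-1.97 ± 0.43 SE). The summed pericyte markers, which include Abcc9, were at 5161 to 9636 CPM in WSB/EiJ, and their part in the Abcc9 value was not tested. Of 15 tested nuclear receptors and other regulators of efflux, 1 was called among strains (Ctnnb1, the beta-catenin gene), as was 1 of 10 genes for pump scaffolding and trafficking (Cav1, the caveolin gene of endothelial membrane pits), 1 of 9 uptake transporters (Slco1c1, a thyroxine carrier of the barrier) and 1 of 16 glutathione and conjugation genes (Gsta4). Gsta4, which conjugates lipid aldehydes to glutathione, was higher in 129S1/SvImJ (2.88 ± 0.25 SE) and C57BL/6J (2.50 ± 0.28 SE) and lower in CAST/EiJ (-2.36 ± 0.40 SE). It was also 1.22 ± 0.41 SE higher in female than in male libraries (adjusted p = 0.0979, edgeR). Most 129S1/SvImJ libraries were female and deep, and the part of sex and depth in the 129S1/SvImJ values of Gsta4 and Abcg1 was not tested.

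By origin, 2 of 12 other ABC genes were called higher in wild-derived strains (Abcb4 and Abcg1) and 1 of 16 glutathione and conjugation genes lower (Gsta4), with 0 called in the other 3 lists, beside 0.749% of all genes. This test took libraries as its units, although origin is a property of strains, 2 wild-derived and 5 long-inbred. With counts summed per strain, most genes called by origin were no longer called. The paper had reported Abcb4 and Abcg1 higher in wild-derived mice from these data. Of the wild-derived strains, Abcb4 was high in CAST/EiJ only, with WSB/EiJ at 0 to 20.1 CPM. By region, 0 genes of the 5 lists were called. In males titled low against high, Ctnnb1 was called higher (0.46 ± 0.11 SE) and Lef1 (-0.48 ± 0.12 SE), Cav1 (-0.67 ± 0.16 SE), the organic anion carrier Slco1a4 (-0.55 ± 0.12 SE) and the epoxide hydrolase Ephx1 (-1.05 ± 0.21 SE) were called lower. The median log2 difference was -0.42 for 9 uptake transporters and -0.26 for the 8 members, beside -0.04 over all tested genes. In females against males, the membrane-cytoskeleton linkers Msn (0.67 ± 0.11 SE) and Rdx (0.42 ± 0.11 SE) and the glutathione peroxidase Gpx4 (0.84 ± 0.24 SE) were called higher and Ctnnb1 (-0.53 ± 0.13 SE) and Gstm1 (-0.62 ± 0.16 SE) lower. The median for the 8 members was 0.15, beside -0.12 over all genes.

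The members did not rise and fall as 1 block across libraries. Over 43 libraries, which share strains, tags and scaling, Pearson's r of log2(CPM + 1) was 0.51 between Abcb1a and Abcg2, 0.40 between Abcg2 and Abcc6, 0.33 between Abcg2 and Abcc4, 0.25 between Abcb1a and Abcc4 and -0.43 between Abcb1a and Abcb1b. With the summed endothelial markers r was 0.59 for Abcg2, 0.57 for Abcb1a and 0.39 for Abcc4, against -0.19 for Abcc5 and -0.17 for Abcc1. Among 10648 genes with a mean of at least 5 CPM, those most like Abcb1a were Slco1a4 (r = 0.77), Hmcn1 (0.67) and Gpcpd1 (0.67). Most like Abcg2 were Itm2a (0.71), Tra2b (0.71) and Tor1b (0.69), and most like Abcc4 were Psmc4 (0.66), the tight junction gene Ocln (0.64) and Tinagl1 (0.63). Slco1a4, Itm2a and Ocln are themselves among the summed endothelial markers, so these values and those for the sum overlap. For Abcb1b, added after its values were seen, the closest were Ly6c2 (0.81), Nlrp1a (0.73) and Tent5c (0.71).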

How the data were processed

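The authors sequenced rRNA-depleted total RNA (SMARTer stranded pico kit), aligned reads of all strains to mm10 with HISAT2 2.1.0 and counted reads per gene with featureCounts (Subread 1.4.4). They deposited raw counts per gene with no normalization. The strand setting, the treatment of reads that fit several genes and the meaning of the title tags are not given in the sources used here, so values of genes with close copies (Abcb1a, Abcb1b) or with overlapping genes are less certain. Gm42684 and Gm42686 overlap Abcb1a, at a mean of no more than 13.2 CPM.

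A gene was tested if it reached 0.5 CPM in 1 or more libraries, the study's own filter. Counts were scaled by TMM and tested with edgeR 4.0.16 in R 4.3.3 (quasi-likelihood test with bias-adjusted deviances and trended dispersion, two-sided, no covariates, Benjamini-Hochberg adjustment over all tested genes at 0.05). All libraries entered each fit, except that title tags were compared in the 27 male libraries. Each strain was set against the unweighted mean of the other 6. The interaction of strain and region left out 384 genes whose fitted counts ran over 5 times past their highest count. DESeq2 1.42.0 was an alternative. SE are the fold change over the root of F. Sequences were read from GENCODE M21 transcripts (GRCm38) and aligned with Biopython 1.88. The scripts were tested on simulated data.

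Members and gene lists were chosen with earlier results of these data known. Genes named from the lists were, by rule, among the 3 with the smallest p in a comparison, and the genes most like Abcb1a, Abcg2 and Abcc4 the 3 with the highest r. Alternatives covered the test, scaling, filter, covariates, subsets and left-out libraries or strains, and several were added after seeing the data: libraries under 3000000 counts left out, the rRNA-like share as a covariate, and all those for CAST/EiJ and NOD/ShiLtJ alone. Of 116 pairs of libraries within strains, the closest differed by a chi-square of 19.4 per degree of freedom over genes, so no library was counted as a repeat. A floor of 3 counts was used for values at 0, and it covers counting error only.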

Additional observations from a re-analysis of the deposited data

Results flagged for a closer look

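Sets of libraries of 1 strain for 1 member were screened on log2(CPM + 1), though levels are given below in CPM. Of 49 sets, 4 held a library whose gap to its nearest neighbour, over the range of its strain, was above Dixon's 95% critical value. The A/J library with 24.2 CPM of Abcb1b was not among those flagged on the log2 scale. By that definition chance flags about 1 in 20 sets. Abcb1a was at 1417 CPM in 1 NOD/ShiLtJ library (cortex, male, titled high), against 1130 to 1225 CPM in the other 5. Abcg2 was at 136 CPM in 1 CAST/EiJ library (hippocampus, male, titled low), against 232 to 310 CPM in the others. Abcc1 was at 3.10 CPM in 1 NOD/ShiLtJ library (cortex, female, titled high), against 17.1 to 32.5 CPM in the others. Abcc6 was at 14.01 CPM in 1 129S1/SvImJ library (cortex, female, titled low), against 42.8 to 79.5 CPM in the other 8.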

How the results depend on the processing

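Of 525 member values recomputed under the alternatives, 490 kept their direction and side of the threshold, 29 turned, 4 became called and 2 were no longer called. The cause was not tested. Abcb1b remained called among strains in 16 of 17 alternatives (adjusted p 2.23e-05 to 0.462, edgeR and DESeq2) and in CAST/EiJ in 10 of 11 (0.000686 to 0.262), and was called in NOD/ShiLtJ in 1 of 11 (0.0170 to 0.547). Genes called among strains were 781, against 1467 in DESeq2 and 474 in male libraries, where members called were 2 and 0. By origin 218 became 414 in DESeq2 and 7 with counts summed per strain. By region 22 became 65 in DESeq2 and 59 with strain, sex and tag as a block. By tag 293 became 616 in DESeq2 and 560 with strain and region as covariates, and members called rose to 1 in DESeq2 and 1 without libraries under 3000000 counts. By sex 830 became 1345 in DESeq2, 448 in libraries titled high and 67 with the rRNA-like share as a covariate. In CAST/EiJ 394 became 255 in male libraries, with 0 members.

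Leaving out each A/J or DBA/2J library gave 715 to 837 genes and 1 member among strains. Leaving out each A/J library gave 365 to 377 genes and 1 member in CAST/EiJ, and 46 to 51 genes and 0 to 1 members in NOD/ShiLtJ (1 without replicate 2).

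The log2 differences that turned were not called in either setting. By origin, Abcb1a turned to -0.028 with no filter, -0.015 with the stricter filter, -0.058 without libraries under 3000000 counts, and -0.0034, -0.045, -0.070 and -0.16 without A/J, DBA/2J, NOD/ShiLtJ and WSB/EiJ. Abcc1 turned to -0.021 with no filter, -0.011 with covariates, and -0.055, -0.19 and -0.41 without 129S1/SvImJ, C57BL/6J and CAST/EiJ. Without CAST/EiJ, Abcb1b was -1.52, Abcc4 -0.18 and Abcc5 0.022. By region, Abcb1a was -0.053 in male libraries, and Abcg2 -0.0033 in DESeq2, -0.0038 with its size factors, -0.034 with the block and -0.12 in male libraries. By tag, Abcc5 was -0.016 without libraries under 3000000 counts. By sex, the rRNA-like covariate gave 2.30 for Abcb1b, -0.70 for Abcc5 and -0.37 for Abcc6, libraries titled high gave -0.061 for Abcc1, and covariates -0.093 for Abcc5. In CAST/EiJ, Abcg2 was 0.0028 and 0.0059 without A/J replicates 4 and 5 (-0.037 to 0.0059 over its 5 left-out libraries), and in NOD/ShiLtJ Abcc5 was 0.058 in male libraries. A replicate block was not fitted, because the replicate numbers do not tie libraries of different strains together. With regions paired by a block of strain, sex and tag, 0 members were called, as without it. Depth limits the low members: Abcb1b was at 3 counts or fewer in 9 libraries and Abcc3 at 0 in 30.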

Other observations

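Over all tested ABC genes, 6 of 49 (12.2%) were called among strains, beside 2.68% of all genes. Further genes of the conjugation and uptake lists differed in single strains by edgeR's quasi-likelihood test. In WSB/EiJ the sulfotransferase Sult1a1 was higher (log2 fold change 2.47 ± 0.69 SE) and the peroxidases Gpx1 (-1.60 ± 0.42 SE) and Gpx4 (-1.39 ± 0.39 SE) were lower. WSB/EiJ also had the lowest median library total of the strains (2721155 counts). The median log2 fold change over all tested genes in WSB/EiJ was -0.72. The part of depth in the WSB/EiJ values was not tested. In 129S1/SvImJ the organic anion carrier Slco2b1 was lower (-0.69 ± 0.19 SE), and the part of sex and depth in this value was not tested. The paper reported finding no expression differences for Slco2b1 or for Slco1c1, which was called among strains here. The tests that the paper describes were by sex, region and origin, not strain by strain.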
